A study of Mus musculus with 9 samples.

Results

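Metallothioneins and their zinc partners, 5 genes in all, were followed through the RNA of mouse footpad basal keratinocytes. The genes were Mt1, Mt2 and Mt4, which encode metallothioneins, Mtf1, which encodes the metal-responsive transcription factor 1, and Slc30a1, which encodes the zinc exporter ZnT1. They were found by symbol among the 22399 genes of the deposited table, and all 5 passed the expression minimum described below. Mt1, Mt2, Mtf1 and Slc30a1 were taken by name, with earlier results of these data known. Mt4 was selected on its FPKM in the aged libraries, where it was high, so its levels in aged animals are described without a test. The libraries came from C57BL/6 wild-type animals in 3 groups of 3. The aged group was 24 months old, with no diet given in the labels. The HFD group ate a high-fat diet and was 5 months old. The control group ate a normal diet and was also 5 months old. All samples were plantar skin cells sorted as CD49f positive (the integrin alpha 6 chain of basal cells) and CD34 negative, after trypsin at 37 °C. Nothing in the labels tells whether different animals gave the 3 samples of a group. The p-values therefore measure the spread between samples, and that spread may be technical.

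Metallothioneins are small proteins that bind zinc, copper and cadmium through cysteines. Zinc entering a cell activates Mtf1, which binds metal response elements in the promoters of Mt1, Mt2 and Slc30a1. The metallothioneins then hold the metal and ZnT1 moves it out across the plasma membrane. Mt1 and Mt2 are made in most tissues and also answer glucocorticoids and stress, whereas Mt4 is restricted to stratified squamous epithelia such as skin and tongue.

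The coding sequences are shown because the cysteine codons, in capitals, define the family. Each was read from the main GENCODE M21 transcript, with its stop codon, in the 5′ to 3′ direction.
Mt1: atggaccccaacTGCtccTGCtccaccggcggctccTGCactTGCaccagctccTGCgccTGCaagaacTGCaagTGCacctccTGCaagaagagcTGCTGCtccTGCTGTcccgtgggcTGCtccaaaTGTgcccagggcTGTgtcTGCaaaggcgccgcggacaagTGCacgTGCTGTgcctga
Mt2: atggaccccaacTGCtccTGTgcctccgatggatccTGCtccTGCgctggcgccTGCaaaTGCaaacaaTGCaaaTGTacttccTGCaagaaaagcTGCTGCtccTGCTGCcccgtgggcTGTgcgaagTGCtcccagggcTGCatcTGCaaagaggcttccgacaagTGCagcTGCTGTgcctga
Mt4: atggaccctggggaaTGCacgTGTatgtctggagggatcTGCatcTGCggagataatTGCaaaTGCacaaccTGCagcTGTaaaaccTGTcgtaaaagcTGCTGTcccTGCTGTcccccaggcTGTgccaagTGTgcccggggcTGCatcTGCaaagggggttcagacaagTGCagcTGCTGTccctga
All 3 hold 20 cysteine codons, over 61 codons in Mt1 and Mt2 and 62 in Mt4. Mt1 and Mt2 were identical at 79.6% of 186 aligned coding bases. Mt4 was identical to Mt1 at 66.8% and to Mt2 at 73.2% of 190 aligned positions. None of the stretches of 50 bases in these transcripts, or in those of Mtf1 and Slc30a1, occurred in an annotated transcript of another gene, so reads of the metallothioneins could be told apart at that length. In the table the members carry the identifiers ENSMUSG00000031765 (Mt1), ENSMUSG00000031762 (Mt2), ENSMUSG00000031757 (Mt4), ENSMUSG00000028890 (Mtf1) and ENSMUSG00000037434 (Slc30a1). Mt4, Mt2 and Mt1 lie in this order on the plus strand of chromosome 8 (GRCm38), at chr8:94137197-94139031, chr8:94172664-94173568 and chr8:94179082-94180327, with Mt3 between Mt4 and Mt2. Mtf1 is at chr4:124802104-124849800 and Slc30a1 at chr1:191906767-191913247, both on the plus strand. An exon of Mtf1 overlaps the gene 1110065P20Rik on the opposite strand (5.48 to 8.75 FPKM), and exons of Mt2 and Slc30a1 overlap antisense transcripts. The library kit marks strand, but the strand setting used in counting is not given in the sources used here, so the levels of these 3 genes are uncertain to that extent.

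The promoters are shown because Mtf1 is known to act through those of Mt1, Mt2 and Slc30a1, with that of Mt4 beside them. They are the 250 bases before the RefSeq start (GRCm38.p6) of the genes whose levels are compared below, with the core of the metal response element in capitals (TGCACNC or TGCGCNC, on either strand, matches that overlap counted separately).
Mt1, chr8:94178839-94179088, plus strand: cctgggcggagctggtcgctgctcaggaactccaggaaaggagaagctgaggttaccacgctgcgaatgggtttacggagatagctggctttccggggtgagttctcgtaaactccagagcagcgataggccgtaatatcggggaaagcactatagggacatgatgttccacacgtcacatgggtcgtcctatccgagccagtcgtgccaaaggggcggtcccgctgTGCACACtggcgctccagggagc
Mt2, chr8:94172368-94172617, plus strand: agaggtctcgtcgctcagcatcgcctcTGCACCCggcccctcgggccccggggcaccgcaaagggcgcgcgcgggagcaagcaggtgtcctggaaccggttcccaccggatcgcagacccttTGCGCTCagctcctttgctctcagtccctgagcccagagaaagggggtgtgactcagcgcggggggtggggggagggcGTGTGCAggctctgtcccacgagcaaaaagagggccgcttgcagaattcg
Mt4, chr8:94136954-94137203, plus strand: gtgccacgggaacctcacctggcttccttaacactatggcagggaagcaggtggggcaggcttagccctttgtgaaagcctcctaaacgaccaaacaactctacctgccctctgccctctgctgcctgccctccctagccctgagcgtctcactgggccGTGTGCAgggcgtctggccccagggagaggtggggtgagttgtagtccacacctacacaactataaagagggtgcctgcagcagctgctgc
Slc30a1, chr1:191906531-191906780, plus strand: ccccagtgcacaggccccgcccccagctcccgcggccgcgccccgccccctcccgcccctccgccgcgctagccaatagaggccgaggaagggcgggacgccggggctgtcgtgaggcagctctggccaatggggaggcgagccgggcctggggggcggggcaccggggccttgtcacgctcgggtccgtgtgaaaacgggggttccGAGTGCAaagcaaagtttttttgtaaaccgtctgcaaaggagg
With the 50 bases after the start added, Mt2 held 4 matches, Mt1 held 3, Slc30a1 held 2, Mt4 held 1 and Mtf1 held 0. For Mt1 only 1 match lay in the printed bases, and the others began at bases 3 and 21 after the RefSeq start. Of 32851 such windows, 25.7% held at least 1 match, 7.11% at least 2, 1.97% at least 3 and 0.517% at least 4. A match is a description of the letters in this window and not a site. Bases beyond the window were not searched, so stretches through which Mtf1 acts may lie outside it.

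Levels are the FPKM that the authors deposited, a read density scaled for gene length and depth, and SD is over the 3 libraries of a group. A log2 fold change is the limma estimate ± SE on the log2(FPKM + 1) scale. The model covered the 10367 genes whose mean reached 1 FPKM, p-values were adjusted over all of them by Benjamini-Hochberg, and a gene was called at an adjusted p under 0.05. Depth, estimated from the smallest step between low values, was 23.6 to 35.8 M reads per library. The fewest estimated reads of a member in a library were 630, for Mtf1. The label of the cells fitted their markers, since all 13 basal keratinocyte genes passed the minimum and Krt14, a basal keratin, lay between 11012 and 14788 FPKM. RNA of differentiating cells was present too, with 19 of 23 spinous and granular genes above the minimum. Melanocyte, endothelial and erythroid lists had no gene above the minimum and summed to at most 1.35, 0.431 and 0.690 FPKM in a library. Myeloid genes summed to 9.29 to 13.2 FPKM in aged, 8.30 to 13.5 in HFD and 9.10 to 17.8 in control. Fibroblast genes summed to 10.1 to 11.1 FPKM over the aged and HFD libraries and to 11.1 to 15.4 in control. The T cell list summed to 25.7 to 33.2 FPKM in aged, 32.0 to 37.4 in HFD and 45.9 to 53.3 in control, and Thy1, the only gene of the 8 above the minimum, made up nearly all of it. Hair follicle and sebaceous genes, led by Krt79, summed to 173 to 201 FPKM in aged, 77.1 to 105 in HFD and 77.9 to 134 in control. The sweat gland list, led by Slc12a2, summed to 28.0 to 31.6 FPKM in aged, 43.1 to 52.0 in HFD and 26.2 to 28.4 in control. Fewer cells of a type and less RNA per cell cannot be told apart in such bulk samples.

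Mt2 was among the most abundant transcripts of these cells. Its mean of 1382 FPKM over the 9 libraries ranked 17 of 22399 genes, against rank 64 for Mt4 (503 FPKM) and 135 for Mt1 (269 FPKM). The order of Mt2 over Mt4 held in each library, and Mt4 was above Mt1 in each. The order of Mt4 and Mt1 depends on the gene length used. The main Mt1 transcript is 549 bases and all its annotated exons together cover 1246, a ratio of 2.27. The deposited values of Mt1 gave whole reads (tolerance 0.02) in 9 of 9 libraries with 1246 bases and in 0 of 9 with 549, so they were scaled to all exons together, and likewise for Mt2 (588 bases against 511). For Mt4 both lengths are 398 bases. Scaled to the main transcript, the means over the 9 libraries would be 1590 FPKM for Mt2, 611 for Mt1 and 503 for Mt4, which puts Mt1 above Mt4. Mt3, the brain metallothionein, was at 0.113 to 0.932 FPKM, or 4 to 31 estimated reads, and was not tested. Slc30a1 averaged 8.83 FPKM and Mtf1 2.81 FPKM over the 9 libraries.

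**Figure D1:**
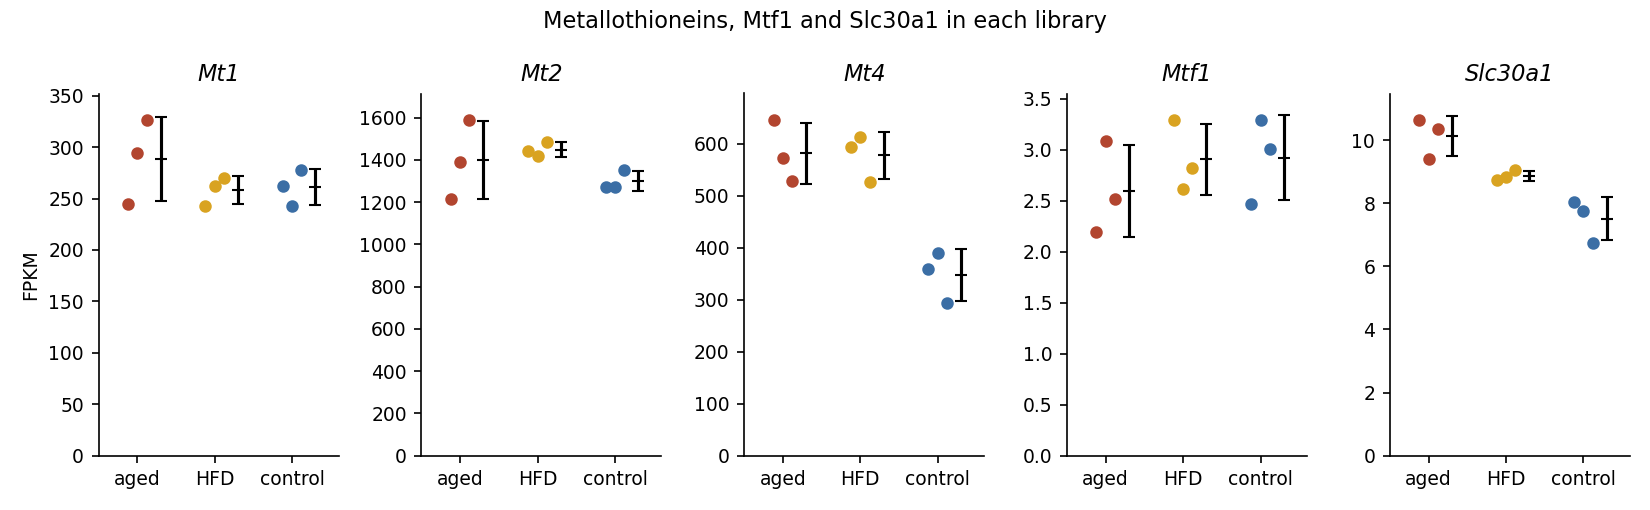
FPKM of each of the 5 genes in each library (points), with the mean and SD of the 3 libraries of a group (bar), for aged, HFD and control animals, each panel on its own axis from 0. Mt4 lies between 527 and 645 FPKM in all aged and HFD libraries and between 294 and 389 in control, whereas Mt1 and Mtf1 overlap among the 3 groups.

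The levels of Mt4 in aged and HFD animals lay beside each other and above those in control animals. Mt4 had 645, 572 and 528 FPKM in aged replicates 1 to 3. It had 594, 614 and 527 FPKM in HFD replicates and 360, 389 and 294 FPKM in control replicates. The lowest aged or HFD library was thus above the highest control library. In HFD against control the log2 fold change of Mt4 was 0.74 ± 0.11, a ratio of means of 1.66. The control libraries are those against which Mt4 was chosen, so this value too is a description and no p is given. In aged against control, the contrast that chose it, the difference was 0.75 ± 0.11 on the log2 scale, a ratio of means of 1.67. Aged and HFD overlapped, with a difference of 0.0075 ± 0.11 on the log2 scale.

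Mt4 is known from the differentiating layers of squamous epithelia, and its level is given beside the summed level of the 23 spinous and granular genes. That sum was 11575, 10223 and 8454 FPKM in aged replicates 1 to 3, 8848, 9181 and 6675 FPKM in HFD and 7672, 8704 and 6879 FPKM in control. Within each group the libraries had the same order for Mt4 as for this sum. Replicate 3 had the lowest Mt4 and the lowest sum in each group, so these orders may share the replicate number and need not be separate agreements. Between HFD and control the sums overlapped while Mt4 did not. Most of the sum came from Krt10, Krtdap and Krt1, which did not go the same way. Krt10 had means of 5573 FPKM in aged, 4478 in HFD and 3865 in control, and Krt1 had 1936, 1542 and 1260. For Krt10 and Krt1 the lowest aged library (4748 and 1627 FPKM) was above the highest control library (4461 and 1436 FPKM). Krtdap had 1829 FPKM in aged, 1487 in HFD and 2023 in control, so the sum does not stand for each gene of the list. HFD replicate 3, with the lowest sum of all, had 527 FPKM of Mt4, and aged replicate 1, with the highest, had 645. Control replicate 2, with a sum of 8704 FPKM, had 389. In HFD against control 1 of the 19 tested genes of the list was called higher (Tgm3) and 1 lower (Lce1b), beside 8.26% and 8.76% of all genes. The median log2 fold change was 0.16 against 0.0094 over all genes tested. In aged against control 3 were called higher (Krt1, Calml3 and Spink5) and 1 lower (Lce1b), beside 4.01% and 3.74% of all genes. The median there was 0.21 against -0.0056. The sweat gland sum given above also did not overlap between HFD (43.1 to 52.0 FPKM) and control (26.2 to 28.4 FPKM). In aged (28.0 to 31.6 FPKM) it was near control while Mt4 was not. Only 3 of the 11 genes of that list passed the minimum, Slc12a2, Acta2 and Ehf, and they made up nearly all of the sum. Krt7, Krt8, Krt18, Krt19 and Aqp5, all with means below 1 FPKM, were lower in HFD than in control, and Atp6v1b1 was higher. These low genes were not tested, whereas the 3 tested genes were all called higher in HFD against control by limma. The sum rests on those 3 genes and was not taken as a measure of sweat gland cells. The part of differentiating or sweat gland cells in the levels of Mt4 was not tested.

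Mt1 and Mt2 did not pass the test in any comparison. Mt1 had 245, 295 and 326 FPKM in aged replicates 1 to 3, 243, 262 and 270 FPKM in HFD and 262, 243 and 278 FPKM in control. The 3 groups overlapped, and the highest library, at 326 FPKM, was an aged one. Its log2 fold change was 0.14 ± 0.10 in aged against control (95% interval -0.09 to 0.36, adjusted p = 0.423 by limma) and -0.014 ± 0.10 in HFD against control (-0.24 to 0.21, adjusted p = 0.937).

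Mt2 had 1217, 1392 and 1587 FPKM in aged replicates 1 to 3, 1440, 1419 and 1486 FPKM in HFD and 1272, 1269 and 1353 FPKM in control. The aged libraries spanned the range of both other groups, and each HFD library was above each control library. The log2 fold change of Mt2 was 0.16 ± 0.10 in HFD against control (95% interval -0.05 to 0.37, adjusted p = 0.272 by limma) and 0.10 ± 0.10 in aged against control (-0.11 to 0.31, adjusted p = 0.544). A p above the threshold does not show that the groups are alike, and the intervals give the differences that these libraries leave possible. In aged against HFD Mt1 had 0.15 ± 0.10 (-0.07 to 0.37, adjusted p = 0.398 by limma) and Mt2 -0.06 ± 0.10 (-0.27 to 0.15, adjusted p = 0.748).

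The ratio of Mt2 to Mt1, which does not depend on gene length when libraries are compared, was 4.97, 4.72 and 4.87 in aged replicates 1 to 3. It was 5.92, 5.41 and 5.51 in HFD and 4.85, 5.23 and 4.87 in control. Each HFD library lay above each aged and control library, and no test was made of this ratio. The summed FPKM of Mt1, Mt2 and Mt4 was 2107 to 2442 in aged, 2277 to 2295 in HFD and 1894 to 1924 in control. Mt4 made up 21.6% to 30.6% of that sum in aged, 23.1% to 26.7% in HFD and 15.3% to 20.5% in control. These sums and shares rest on the deposited gene lengths. Scaled to the main transcripts, the share of Mt4 would be 17.1% to 24.8% in aged, 18.5% to 21.6% in HFD and 11.8% to 16.2% in control.

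With the groups pooled after subtracting group means, Mt1 and Mt2 moved together and Mt4 moved against them. This did not hold between all libraries. From HFD replicate 1 to 2 Mt1 rose from 243 to 262 FPKM and Mt4 from 594 to 614, while Mt2 fell from 1440 to 1419. The aged libraries had the widest spread of Mt1 and Mt2 (SD 40.8 and 185 FPKM, against 13.7 and 34.5 in HFD and 17.6 and 47.4 in control). The aged library with the highest Mt4 (645 FPKM) had the lowest Mt1 and Mt2 (245 and 1217 FPKM), and the aged library with the lowest Mt4 (528 FPKM) had the highest Mt1 and Mt2 (326 and 1587 FPKM). After subtracting group means, Pearson's r over the 9 libraries was 0.92 for Mt1 with Mt2, -0.80 for Mt1 with Mt4 and -0.75 for Mt2 with Mt4, on the log2(FPKM + 1) scale. This opposition follows the replicate number in part, since replicate 3 had the lowest Mt4 and the highest Mt1 and Mt2 in each of the 3 groups. With the means of the replicate numbers subtracted as well, r was 0.81 for Mt1 with Mt2, -0.59 for Mt1 with Mt4 and -0.36 for Mt2 with Mt4. These values describe 9 libraries that share their depth and scaling across genes, and they carry no test.

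**Figure D2:**
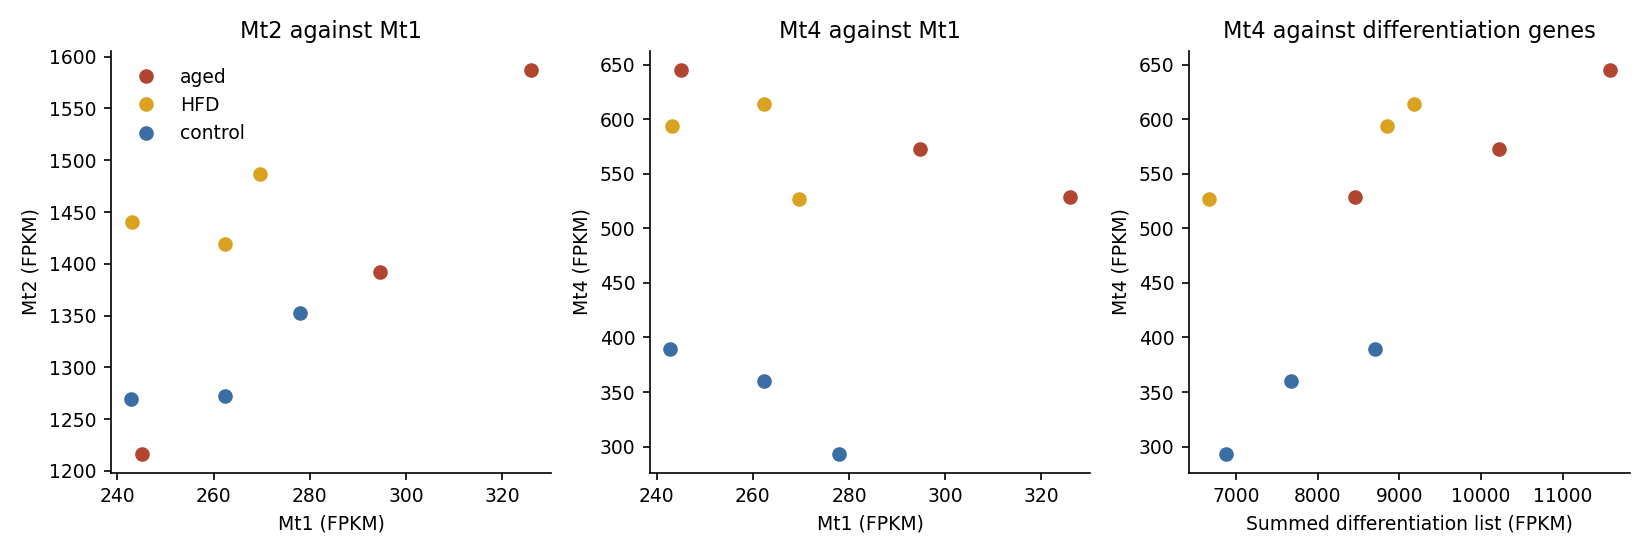
Each point is a library, coloured by group, with Mt2 against Mt1 (left), Mt4 against Mt1 (middle) and Mt4 against the summed FPKM of 23 spinous and granular genes (right), all axes in FPKM and not starting at 0. The aged library with least Mt1 (245 FPKM) has the least Mt2 and the most Mt4 of its group. At sums of 6675 to 9181 FPKM the HFD libraries have more Mt4 than control libraries. The library with the highest sum (11575 FPKM, aged) has the most Mt4.

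Slc30a1 was higher in aged than in control animals. It had 10.6, 9.40 and 10.4 FPKM in aged replicates 1 to 3, 8.72, 8.84 and 9.04 FPKM in HFD and 8.03, 7.76 and 6.73 FPKM in control. No 2 groups overlapped, and HFD lay between aged and control. In aged against control the log2 fold change of Slc30a1 was 0.39 ± 0.08 (95% interval 0.21 to 0.57, adjusted p = 0.0176 by limma), a ratio of means of 1.35. The call ended without control replicate 3 (adjusted p = 0.0624 by limma) or aged replicate 1 (0.0678), while the fold change stayed between 0.32 and 0.44 in all 21 other settings. In HFD against control it was 0.22 ± 0.08 (0.04 to 0.40, adjusted p = 0.0861), and in aged against HFD 0.17 ± 0.08 (-0.01 to 0.35, adjusted p = 0.220), so the test separated HFD from neither group. Other measures were also higher in aged than in control animals. Of 16 immediate early genes 11 were called higher in aged against control by limma, where 4.01% of all genes were. The hair follicle and sebaceous sum was 173 to 201 FPKM in aged, 77.1 to 105 in HFD and 77.9 to 134 in control. It was led by Krt79 (mean 101 FPKM in aged, 46.7 in control), which was not called there. Of the 5 tested genes of that list, Sox9 was called higher and Lgr6 lower in aged against control. The part of these measures in the call of Slc30a1 was not tested.

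Mtf1 overlapped among the groups. It had 2.19, 3.08 and 2.52 FPKM in aged replicates 1 to 3, 3.29, 2.61 and 2.82 FPKM in HFD and 2.47, 3.29 and 3.01 FPKM in control. Its log2 fold change was -0.13 ± 0.12 in aged against control (adjusted p = 0.543 by limma) and -0.0039 ± 0.12 in HFD against control (adjusted p = 0.987). In aged against HFD it was -0.12 ± 0.12 (adjusted p = 0.585), and the 95% interval ran from -0.39 to 0.14 in both comparisons of the aged group.

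Over the members, limma called 1 of the 4 tested in aged against control, which was Slc30a1, beside 4.01% of all genes called higher, 3.74% lower and 7.76% in either direction. In HFD against control limma called 0 of the 4 members other than Mt4, of which 1, Slc30a1, had an unadjusted p under 0.05. Of all genes, 8.26% were called higher in that comparison, 8.76% lower and 17% in either direction. In aged against HFD 0 of 4 were called by limma, and 0 had an unadjusted p under 0.05, beside 3.54% of all genes called higher, 4.45% lower and 7.99% in either direction. The aged and HFD comparisons with control share the 3 control libraries.

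Of the zinc transporters that were tested, limma called 1 of 6 exporters and 1 of 9 importers in aged against control, where 7.76% of all genes were called. In HFD against control it called 0 of 6 exporters and 1 of 9 importers, where 17% of all genes were called. With so few calls these shares say nothing particular about either family. Slc30 proteins move zinc out of the cytosol and Slc39 proteins move it in. Of 10 Slc30 genes 6 were tested. Besides Slc30a1 these were Slc30a4, Slc30a5, Slc30a6, Slc30a7 and Slc30a9, with means of 4.26 to 10.7 FPKM over the 9 libraries. Slc30a1 was the only Slc30 gene called in aged against control, and limma called 0 of 6 in HFD against control, where 2 had an unadjusted p under 0.05, Slc30a1 among them. The median log2 fold change of the 6 was 0.026 in aged against control and -0.014 in HFD against control. Slc30a2 and Slc30a3 were below 1 FPKM on average, and Slc30a8 and Slc30a10 were listed at 0 in every library.

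Of 14 Slc39 genes 9 were tested, with 1 called higher and 0 lower in aged against control and 0 higher and 1 lower in HFD against control. Their medians were -0.084 and 0.033 on the log2 scale. Slc39a6 (ZIP6, a plasma membrane importer) stood at 51.2 ± 3.60 FPKM in aged, 46.5 ± 2.77 in HFD and 40.1 ± 2.64 in control (SD, n = 3). Its log2 fold change in aged against control was 0.35 ± 0.08 (adjusted p = 0.0243 by limma). That call ended with only the 6 libraries compared or without control replicate 2, aged replicate 1 or aged replicate 2 (adjusted p up to 0.0909). Slc39a3 (ZIP3) was at 10.6 ± 0.643 FPKM in HFD and 13.8 ± 1.24 in control, and fell by 0.34 ± 0.10 on the log2 scale (adjusted p = 0.0343 by limma). After a correction for GC content its value was -0.14 (adjusted p = 0.244 by limma, and 0.283 with the replicate block added), and its call also ended with no filter on low values and without control replicate 2 or 3 or any HFD library.

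Aged and HFD animals differed in 2 of the 9 tested importers, where 7.99% of all genes were called. They are named here after their values were seen. Slc39a10 (ZIP10), whose transcription Mtf1 is known to repress, was at 8.39 ± 0.986 FPKM in aged and 11.7 ± 1.29 in HFD (log2 fold change -0.43 ± 0.10, adjusted p = 0.0219 by limma), with 10.3 ± 0.376 FPKM in control. Slc39a1 (ZIP1), the importer with the highest mean over the 9 libraries though below Slc39a6 in aged, was at 45.9 ± 2.14 FPKM in aged and 54.8 ± 1.73 in HFD (-0.25 ± 0.07, adjusted p = 0.0449 by limma). The Slc39a10 call ended in 5 of 21 other settings (no filter, and without HFD replicate 1 or 3 or aged replicate 1 or 3) and the Slc39a1 call in 10, among them the absence of any HFD or aged library or of control replicate 1 or 2. Slc39a4, the intestinal importer, and Slc39a2 had mean levels below 1 FPKM over the 9 libraries.

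**Figure D3:**
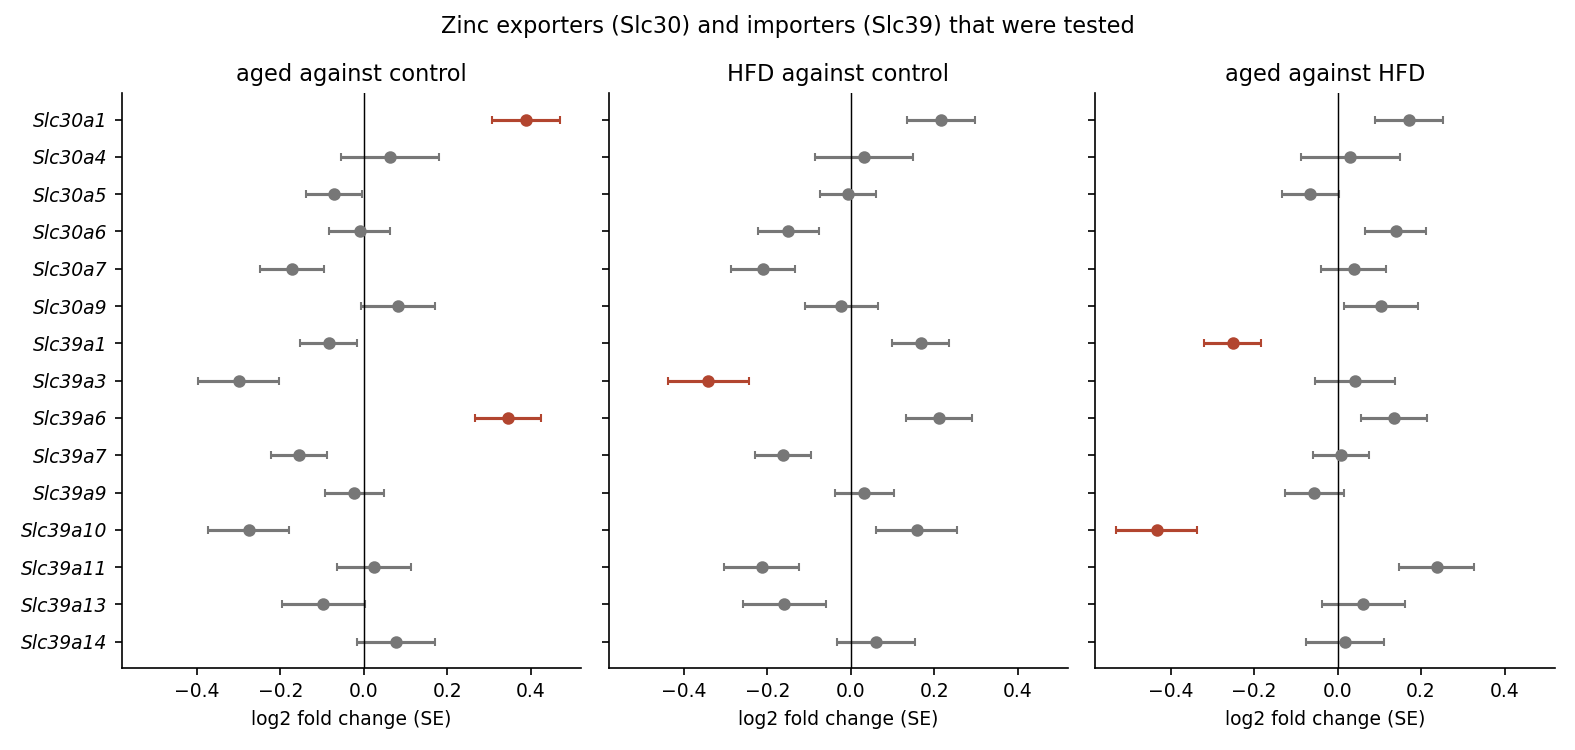
Log2 fold change (point) with SE (bar) of the 6 zinc exporters (Slc30) and 9 importers (Slc39) that were tested, in aged against control, HFD against control and aged against HFD. Red marks a limma adjusted p under 0.05, which holds for Slc30a1 and Slc39a6 in the left panel, Slc39a3 in the middle and Slc39a1 and Slc39a10 on the right.

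Other genes that answer metals or the known inducers of metallothioneins are given by list. Of all genes, 7.76% were called in aged against control and 17% in HFD against control, in either direction. Beside these shares, 1 or 2 calls in such short lists say nothing particular about a list. Of 5 tested genes that answer Mtf1 or zinc, Ndrg1, a stress-induced gene, was called higher in aged (0.49 ± 0.09, adjusted p = 0.00821 by limma) and in HFD (0.43 ± 0.09, adjusted p = 0.00899), both against control. Csrp1, a LIM protein, fell by 0.38 ± 0.09 in aged (adjusted p = 0.0266), a call that ended in 7 of 21 other settings, among them the absence of control replicate 1 or 3 or aged replicate 1 or 2. Copper handling had 0 of 11 genes called in aged by limma, and 0 with an unadjusted p under 0.05. In HFD it had 2 called higher, Commd1, which binds copper (0.36 ± 0.07, adjusted p = 0.00795), and Sod1, the copper and zinc superoxide dismutase (0.27 ± 0.07, adjusted p = 0.0286). Iron handling had 0 of 9 called in aged by limma, with 1 at an unadjusted p under 0.05. In HFD it had 1 called higher, Hmox1, a haem oxygenase (0.70 ± 0.19, adjusted p = 0.0322 by limma). The Sod1 call ended with a GC correction and without control replicate 1 or 2 or any HFD library. The Hmox1 call ended without a filter on low values and without the same 5 libraries in turn.

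Glucocorticoid response genes had 2 of 9 called higher in aged against control. These were Dusp1, a phosphatase of MAP kinases (0.95 ± 0.19, adjusted p = 0.0141 by limma), and Ddit4, an inhibitor of mTORC1 (0.41 ± 0.11, adjusted p = 0.0407). In HFD 0 were called higher and 1 lower, Fkbp5, a co-chaperone of the receptor (-0.46 ± 0.12, adjusted p = 0.0266). The Dusp1 and Fkbp5 calls ended without a filter, the Fkbp5 call also without control replicate 2 or 3 or HFD replicate 1. The Ddit4 call ended in 8 of 21 settings, among them the absence of any control library, of HFD replicate 1 or of aged replicate 2 or 3. Of 12 oxidative and metal stress genes, 2 were called higher and 1 lower in aged, and 2 higher and 2 lower in HFD. Gclm, a subunit of the enzyme that makes glutathione's precursor, had 0.47 ± 0.09 in aged and 0.38 ± 0.09 in HFD (adjusted p = 0.0121 and 0.0175 by limma). Osgin1 fell by 0.72 ± 0.17 in aged and by 1.16 ± 0.17 in HFD, and Txnrd1, thioredoxin reductase, fell by 0.40 ± 0.11 in HFD. The co-chaperone Dnajb1 rose by 0.44 ± 0.08 in aged. The Gclm call in HFD ended with a GC correction (0.26, adjusted p = 0.0745 by limma) and without control replicate 2 or HFD replicate 2. The Txnrd1 call ended without a filter and without control replicate 1 or any HFD library. The Osgin1 call in aged ended with a pseudocount of 0.1, with no filter, with a GC correction and without any control library or aged replicate 1 or 2. Of 7 genes of interleukin 6 and STAT3 signalling, the feedback inhibitor Socs3 was called in aged (0.89 ± 0.17, adjusted p = 0.0140 by limma) and limma called 0 of the 7 in HFD, where 3 had an unadjusted p under 0.05. The Socs3 call ended without a filter and without control replicate 2 or aged replicate 2.

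Immediate early genes, which answer stress and cell handling within minutes, were the list with most calls in aged against control, 11 of 16 higher and 0 lower, with a median log2 fold change of 1.35. In HFD 2 were called higher and 1 lower, beside 8.26% and 8.76% of all genes. Atf3 had 2.47 ± 0.24, Fos 1.68 ± 0.19, Zfp36 1.46 ± 0.16 and Egr1 1.23 ± 0.14 in aged against control. In HFD Atf3 had 0.88 ± 0.24, Fos 0.62 ± 0.19 and Jund -0.77 ± 0.21. Each of these HFD calls ended without control replicate 3 or HFD replicate 1, and in other settings. Over these lists and the importers, 27 calls of genes outside the members are named, of which 10 were called in every other setting in which they were tested. These were Atf3, Egr1, Fos, Zfp36, Dnajb1, Gclm and Ndrg1 in aged and Ndrg1, Commd1 and Osgin1 in HFD.

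The genes whose pattern over the 9 libraries was most like each metallothionein were ranked by Pearson's r of log2(FPKM + 1) among the 10367 genes. For Mt4 they were Epcam, an epithelial adhesion molecule (r = 0.96), Ttc3 (0.96) and Pdik1l (0.96). Epcam had means of 40.1 FPKM in aged, 43.0 in HFD and 27.3 in control. For Mt2 they were Tob2 (0.93), Yy1 (0.92) and Bag3, a co-chaperone (0.92). For Mt1 they were Zfp622 (0.91), Lmbr1 (0.88) and Coq8b (0.88). The ranking is a description of 9 libraries and carries no test. Mt4 had r = 0.85 with Slc30a1 (Spearman's rho 0.72), and 0.57 after subtracting group means, the difference between groups being what Mt4 was chosen for. Mt1 had r = 0.67 with Mt2 (rho 0.50) over the same libraries.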

How the data were processed

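The RNA of 9 libraries of sorted plantar basal keratinocytes (3 aged, 3 HFD, 3 control) was analysed. The authors deposited 1 table of FPKM with a column per library. The submitters' processing notes name STAR 2.6.0c, HTSeq 0.11.2, cutadapt, DESeq2 1.30.0 and the mm10 build, with no role for each. The tool behind the FPKM is not given in the sources used here. Depth was estimated from the FPKM times merged exon length (GENCODE M21), which lay on whole multiples of a step (tolerance 0.02) for 97.5% to 98.2% of low values in a library. Those lengths also gave whole reads for all 5 members in all 9 libraries. No count test was run. Median-ratio size factors were equal, so the deposited values were already scaled.

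The test was limma 3.58.1 (R 4.3.3; eBayes with trend, two-sided, 6 residual and 5.50 prior degrees of freedom) on log2(FPKM + 1), in 1 model with a mean for each of the 3 groups. Adding 1 understates changes of low genes such as Mtf1. The members and the 20 gene lists were chosen with earlier results of these data known. Named besides the members were, per pathway list, up to 4 called genes with the smallest p in the comparisons with control, and the 3 genes most like each metallothionein, predicted gene models left out. Coding sequences came from GENCODE M21 and promoters from RefSeq, which held all 5 members. The 21 other settings were 12 changes of pseudocount, filter, scaling, weights, robust fitting, GC correction, replicate block or libraries in the model, and leaving out each of the 9 libraries.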

Additional observations from a re-analysis of the deposited data

How the results depend on the processing

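Mt4 in HFD against control, given as a description because its control libraries also served to choose it, had log2 fold changes of 0.62 to 0.83 under the 21 other settings. Slc30a1 in aged against control kept its direction in all 21 and lost its call in 2, with values of 0.32 without control replicate 3 and 0.36 without aged replicate 1 (range without single libraries 0.32 to 0.44). Mt1 and Mt2 were called in none of the 21 settings in any comparison. Mtf1 was called in none of the 20 in which it was tested, the minimum mean of 5 FPKM leaving it out.

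Differences near 0 changed sign. Mt1 in HFD against control was 0.0384 under the GC correction, also when the replicate block was added, and 0.00397 with library weights (without single libraries -0.0651 to 0.0323). Mtf1 in HFD against control was 0.00861 with quantile normalization (without single libraries -0.0900 to 0.0635). Mt4 in aged against HFD was -0.00549 with library weights (without single libraries -0.0692 to 0.0745). Mt2 in aged against HFD was -0.154 to 0.0375 without single libraries. Those of Mt1, Mt2 and Mtf1 were called under neither sign, Mt4 was given no test, and the cause was not tested.

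The counts over all genes moved more. HFD against control gave 1764 genes, 1162 with a GC correction, and 749 to 2111 without single libraries, with 749, 877, 900 and 1012 without control replicate 2 and HFD replicates 1, 2 and 3. Aged against control gave 804, 469 with only the 6 libraries compared, and 304 to 1254 without single libraries: 320 and 318 without control replicates 2 and 3, and 304, 387 and 1254 without aged replicates 1, 2 and 3. Aged against HFD gave 828, 541 without a filter, and 381 to 775 without single libraries: 475, 381 and 391 without HFD replicates 1 to 3 and 448 without aged replicate 1. Scaling to total FPKM split HFD against control into 597 higher and 1165 lower, against 856 and 908, and aged against control into 360 and 507, against 416 and 388. A GC correction gave 649 higher and 513 lower in HFD against control and 460 and 284 in aged against control.

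The sample titles number the replicates with the prefix ex in each group, and do not say what a number shares between groups. The numbers were not taken as pairs because only 5 of 9 same-numbered pairs had r above 0.1 in their deviations from group means. That cut does not show the samples to be unpaired. Same-numbered pairs had r of -0.05 to 0.27, positive in 8 of 9 and highest for the 3 pairs of replicate 3 (0.19 to 0.27). Differently numbered pairs had r of -0.29 to 0.22. As a hint from the data, the same number correlated best in 10 of 18 cases, and 4 of 9 libraries correlated best with their own number in both other groups. With the replicate block 1137 genes were called in aged against control, 987 in aged against HFD and 2061 in HFD against control. The block changed no call of a member, with Slc30a1 at 0.39 (adjusted p = 0.0183 by limma) in aged. Depth did not limit the members, whereas Mt3 rested on 4 to 31 estimated reads.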
